A study of Arabidopsis thaliana with 56 samples.

Results

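The 10 genes described here encode enzymes and carriers of the flavonoid pathway that makes proanthocyanidins, the tannins that colour the Arabidopsis seed coat: TT4 (AT5G13930), TT5 (AT3G55120), TT6 (AT3G51240), TT7 (AT5G07990), TT3 (AT5G42800), TT18 (AT4G22880), BAN (AT1G61720), TT10 (AT5G48100), TT12 (AT3G59030) and TT19 (AT5G17220). They were chosen by name for their place in the pathway, with earlier results of these data known. They are 10 of the 63867 features counted in each library, and all 10 were among the 24696 features tested. Nuclei with a DNA content of 6C were sorted from Arabidopsis thaliana seeds as endosperm, and their mRNA was sequenced in 20 libraries. Of these, 4 came from wild type (WT) at 6 days after pollination (DAP), 4 from WT at 7 DAP, and 3, 5 and 4 from crwn1/2 at 6, 7 and 8 DAP. The crwn1/2 plants carry mutations in CRWN1 and CRWN2, which encode lamina-like filament proteins that line the inside of the nuclear envelope in plants. Each endosperm mRNA library was made from the seeds of 1 to 5 siliques, the labels used here give neither the alleles nor the strain, and no WT library of 8 DAP was analysed here. H3K27me3 at the 10 genes was not analysed here.

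Flavonoid synthesis starts from phenylalanine through the general phenylpropanoid steps. Chalcone synthase and the enzymes after it make dihydroflavonols, which flavonol synthase turns into flavonols and dihydroflavonol reductase turns into leucoanthocyanidins, the route to anthocyanins and proanthocyanidins. In Arabidopsis seeds proanthocyanidins are known from the endothelium, the innermost layer of the maternal seed coat, which lies against the endosperm. The TT genes are named after the pale, transparent testa (tt) of their mutants. The late genes of the route are known targets of a complex of the MYB factor TT2, the bHLH factor TT8 and the WD40 protein TTG1.

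Total counts per library ranged from 6986418 to 14359413. Reads outside features made up 4.05% to 5.92% of the counted reads and set the genotypes apart at 7 DAP: every WT library (4.81% to 5.92%) lay above every crwn1/2 library (4.05% to 4.68%). CRWN2 had 53.5 to 90.3 CPM (counts scaled to a common library total) in WT and 23.7 to 36.9 CPM in crwn1/2 at 6 DAP (log2 difference -1.26, edgeR adjusted p 0.003917). CRWN1 overlapped between the genotypes at that day, with 76.7 to 152 CPM in WT and 43.9 to 104 CPM in crwn1/2 (log2 difference -0.51, edgeR adjusted p 0.1924). At 7 DAP CRWN2 had 34.8 to 44.8 CPM in WT and 14.2 to 33.03 CPM in crwn1/2, apart but not called (-0.61, adjusted p 0.0618), and CRWN1 had a log2 difference of -0.02 (adjusted p 0.9619). Where the alleles cut these genes relative to the counted reads was not analysed here. The endosperm markers summed to 253 to 656 CPM over the libraries, and the 11 embryo markers to 115 to 209 CPM. The 10 outer seed coat markers summed to 513 to 1938 CPM, so transcripts known from the seed coat were present in every library sorted as endosperm. The part of each cell type in these levels was not tested. In such bulk samples fewer cells of a type and less RNA per cell cannot be told apart. The labels do not say that replicates came from separate plants, so the p-values measure only the spread between these libraries.

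**Figure D1:**
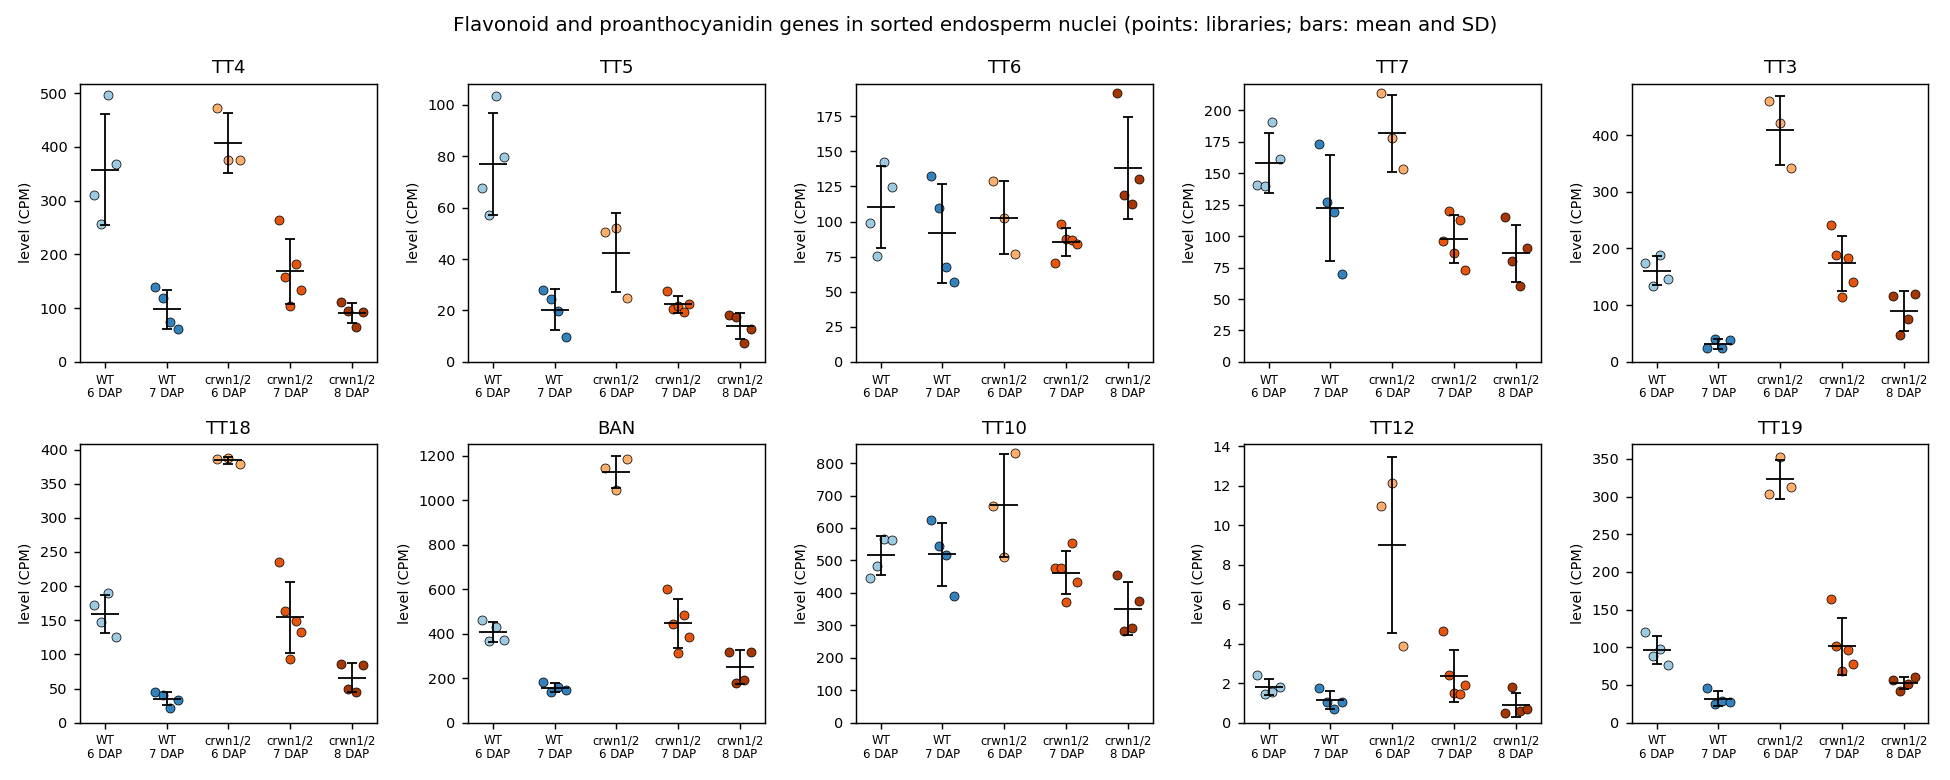
Level of each of the 10 genes in CPM (y axis, from 0, a scale of its own per gene) in the 5 groups (x axis). Points are libraries and bars the mean and SD. TT3, TT18, BAN and TT19 stand highest in the 3 crwn1/2 libraries of 6 DAP. TT4, TT6, TT7, TT10 and TT12 overlap between all groups that are neighbours in the order of the means.

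The first comparison asked how the pathway differed between genotypes at 6 DAP. Of the 10 genes, 5 were higher in crwn1/2 and 0 were lower, where 6.38% of all features tested were called higher and 6.26% lower (edgeR, adjusted p under 0.05; 12.6% in either direction). The 5 were TT3, TT18 and BAN, the consecutive enzymes that lead from dihydroflavonols to the proanthocyanidin precursor, and TT12 and TT19, which take part in moving flavonoids to the vacuole. The median log2 change was 0.83 over the 10 genes and -0.01 over all features.

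TT3 encodes dihydroflavonol reductase, which opens the route to anthocyanins and proanthocyanidins. Its level was 175, 134, 188 and 146 CPM in the WT libraries of 6 DAP and 461, 422 and 342 CPM in those of crwn1/2. Every crwn1/2 library thus lay above every WT library, and the log2 difference was 1.34 (standard error 0.263, edgeR adjusted p 0.001297). TT18 encodes leucoanthocyanidin dioxygenase, the next enzyme of the route. TT18 had 173, 148, 189 and 126 CPM in WT and 386, 388 and 378 CPM in crwn1/2. The crwn1/2 libraries were close to one another and all above WT, with a log2 difference of 1.27 (standard error 0.257, edgeR adjusted p 0.001727).

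BAN encodes anthocyanidin reductase, which commits the pathway to proanthocyanidins. It stood at 462, 367, 432 and 371 CPM in WT and at 1146, 1046 and 1186 CPM in crwn1/2. No WT library came near the crwn1/2 libraries, and the log2 difference was 1.46 (standard error 0.207, edgeR adjusted p 3.543e-05).

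TT19 encodes a glutathione S-transferase that carries flavonoids toward the vacuole. Its values were 120.2, 88.8, 98.2 and 76.7 CPM in WT and 304, 353 and 312 CPM in crwn1/2. The groups did not overlap, and the log2 difference was 1.75 (standard error 0.238, edgeR adjusted p 2.329e-05). TT12 encodes a transporter of the vacuolar membrane and was the gene with the fewest counts, 6 to 119 per library. TT12 had 2.41, 1.46, 1.56 and 1.81 CPM in WT and 10.96, 12.1 and 3.91 CPM in crwn1/2. All 3 crwn1/2 libraries were above WT but replicate 3 was far below the other two, and the log2 difference was 2.30 (standard error 0.543, edgeR adjusted p 0.006476). TT12 passed the filter on low counts with 14 of 20 libraries at or above its level of 1.072 CPM, among them all 3 of crwn1/2 at 6 DAP but 1 of 4 in WT at 7 DAP and 1 of 4 in crwn1/2 at 8 DAP.

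The genes upstream of TT3 were not called at 6 DAP. TT4 encodes chalcone synthase, the entry enzyme, and had 310.5, 256, 496 and 369 CPM in WT and 472, 375 and 375 CPM in crwn1/2, with overlapping groups (log2 difference 0.19, standard error 0.279, edgeR adjusted p 0.7065). TT5, chalcone isomerase, had 67.8, 57.2, 103 and 79.6 CPM in WT and 50.4, 52.2 and 24.9 CPM in crwn1/2. It was the gene of the 10 that lay lower in every crwn1/2 library than in any WT library, as 11.8% of all features did, at a log2 difference of -0.86 (standard error 0.309) that missed the threshold (edgeR adjusted p 0.06945) but passed when the 2 groups were fitted alone (-0.87, adjusted p 0.03994). TT6, flavanone 3-hydroxylase, ranged from 75.5 to 143 CPM in WT and from 77.1 to 129 CPM in crwn1/2. TT7, flavonoid 3'-hydroxylase, ranged from 140.0 to 191 CPM in WT and from 153 to 214 CPM in crwn1/2. Their log2 differences were -0.10 and 0.20 (edgeR adjusted p 0.8383 and 0.6218). TT10 encodes a laccase-like oxidase thought to act on proanthocyanidins in the seed coat, at the far end of the pathway. It ranged from 447 to 567 CPM in WT and from 512 to 829.7 CPM in crwn1/2, which overlapped (log2 difference 0.38, standard error 0.193, edgeR adjusted p 0.2104).

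Split by step, the sum of TT4, TT5, TT6 and TT7 was 529 to 933 CPM in WT and 631 to 865 CPM in crwn1/2 at 6 DAP. The sum of TT3, TT18 and BAN was 643 to 810.0 CPM in WT and 1856 to 1992 CPM in crwn1/2. The upstream sums overlapped between the genotypes and the downstream sums did not. All 5 calls stood under each of the 6 other fits and with each of the 7 libraries left out in turn. Groups that did not overlap, with crwn1/2 higher, were found for these 5 genes and for 10.8% of all features.

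**Figure D2:**
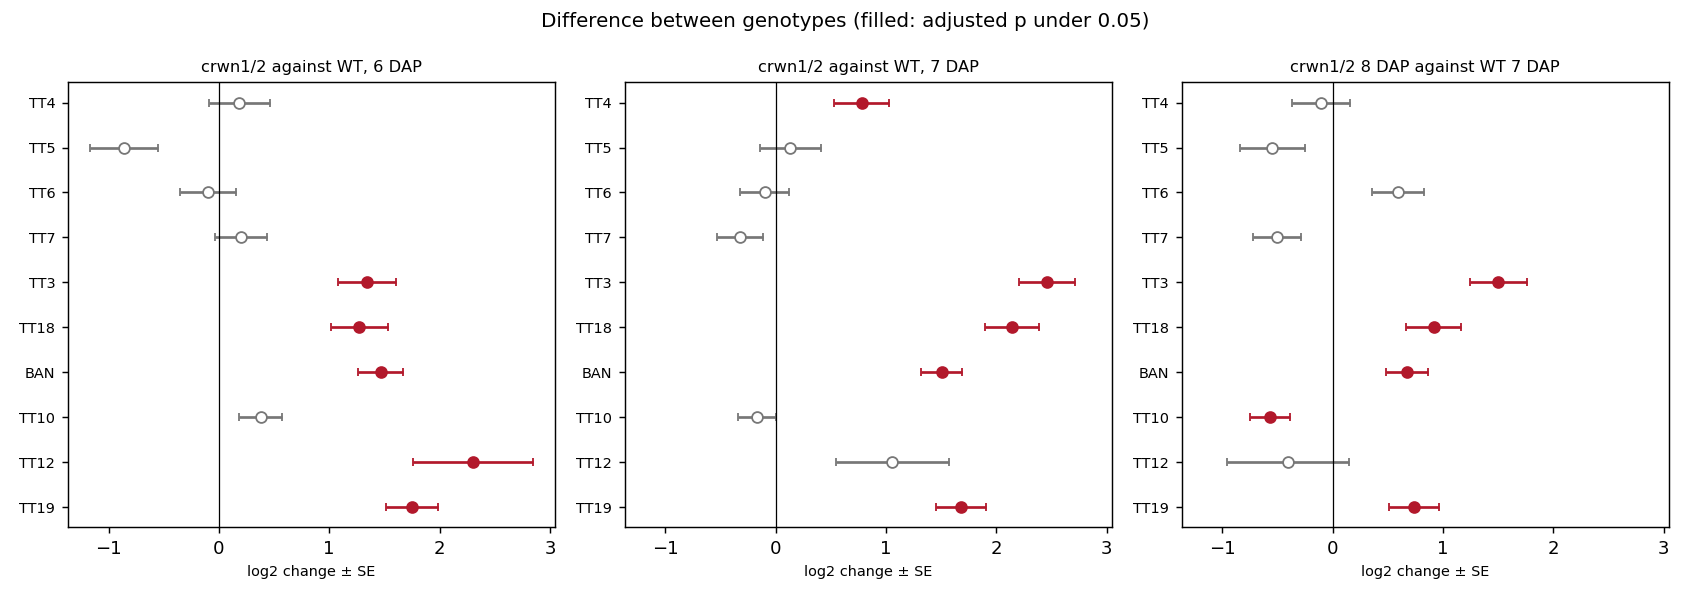
Log2 change with SE (x axis) of each gene (y axis) in the 3 comparisons between genotypes; filled points have an edgeR adjusted p under 0.05. TT3, TT18, BAN and TT19 are to the right of 0 in all 3 panels, and the comparisons with WT at 7 DAP share that control group.

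At 7 DAP 5 genes were again higher in crwn1/2 and 0 lower, against 10.9% of all features called higher and 13.5% called lower (24.4% in either direction). They were TT4, TT3, TT18, BAN and TT19, and the median log2 change was 0.92 over the 10 genes and 0.02 over all features. TT3 had 24.2, 39.6, 24.1 and 38.7 CPM in WT and 241, 189, 115, 183 and 141 CPM in crwn1/2. The lowest crwn1/2 library lay well above the highest WT library, and the log2 difference was 2.46 (standard error 0.256, edgeR adjusted p 1.107e-06). TT18 had 44.4, 40.1, 22.1 and 33.7 CPM in WT and 235, 163, 92.9, 149 and 133 CPM in crwn1/2. It also did not overlap, and its log2 difference was 2.14 (standard error 0.247, edgeR adjusted p 3.961e-06).

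BAN had 184, 139.8, 161 and 145 CPM in WT at 7 DAP and 602, 443, 314, 486 and 386 CPM in crwn1/2. The groups were apart at a log2 difference of 1.50 (standard error 0.19, edgeR adjusted p 1.136e-05). TT19 had 46.4, 24.3, 28.5 and 27.5 CPM in WT and 165, 101, 68.0, 96.2 and 77.4 CPM in crwn1/2. It too was higher in every crwn1/2 library (log2 difference 1.68, standard error 0.223, edgeR adjusted p 2.268e-05). Of the 10 genes, these 4 had every crwn1/2 library above every WT library, as 8.3% of all features had, and 0 had the reverse, as 12.4% had. In all 4 genes replicate 1 was the highest of the crwn1/2 libraries at 7 DAP and replicate 3 the lowest.

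TT4 had 139, 118, 74.2 and 61.7 CPM in WT and 265, 158, 104, 182 and 133 CPM in crwn1/2 at 7 DAP, and the groups overlapped. Its log2 difference of 0.78 (standard error 0.252, edgeR adjusted p 0.02684) no longer passed without WT replicate 3 (0.66, adjusted p 0.08797), without WT replicate 4 (0.60, adjusted p 0.1009) or without crwn1/2 replicate 1 (0.56, adjusted p 0.09031). It also missed the threshold when reads outside features entered as a covariate, given as their share (0.35, adjusted p 0.703), a share that was higher in every WT library, and in a fit of the 2 groups alone (0.74, adjusted p 0.06487). The calls of TT3, TT18, BAN and TT19 held under that covariate, with log2 differences down to 2.15, 1.99, 1.24 and 1.63 over the other fits. TT12 ranged from 0.672 to 1.77 CPM in WT and from 1.43 to 4.64 CPM in crwn1/2 (log2 difference 1.05, standard error 0.512, edgeR adjusted p 0.137). TT5, TT6, TT7 and TT10 had log2 differences of 0.13, -0.10, -0.32 and -0.17, with edgeR adjusted p from 0.2699 to 0.7865.

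An interaction term tested if the genotype effect at 7 DAP was unlike that at 6 DAP. Of the 10 genes, 0 passed (edgeR, adjusted p under 0.05), where 3.49% of all features did (1.85% higher and 1.64% lower at 7 DAP). TT5, TT3 and TT18, whose log2 difference between genotypes was higher at 7 DAP, had an unadjusted edgeR p under 0.05. So did TT10, whose difference was lower there. The share of all features under that unadjusted threshold is not given here, so these genes cannot be set against it. TT3 had the lowest adjusted p of the 10 at 0.08614, for a difference of 1.12 on the log2 scale (standard error 0.36). It passed with the DESeq2 Wald test (1.07, adjusted p 0.0492), in a fit of those 4 groups alone (1.11, adjusted p 0.04943) and without the filter on low counts (1.27, adjusted p 0.006201), where TT18 passed as well (1.03, adjusted p 0.03103). BAN and TT19 had interaction estimates of 0.04 (standard error 0.276) and -0.07 (standard error 0.322).

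The crwn1/2 libraries of 8 DAP were set against WT at 7 DAP, so that genotype and day differ together and the WT libraries are those of the comparison at 7 DAP. Here 4 genes were higher and 1 lower, where 6.9% of all features were called higher and 7.04% lower (13.9% in either direction). TT3 and TT18 had groups that did not overlap, with crwn1/2 higher, as 8.49% of all features had, and 0 genes had the reverse, as 10.9% had. TT3 had 116, 47.2, 74.9 and 119 CPM in crwn1/2 at 8 DAP, all above WT at 7 DAP (log2 difference 1.50, standard error 0.256, edgeR adjusted p 0.000542). TT18 had 85.2, 49.9, 45.3 and 84.0 CPM, also all above WT, with replicates 2 and 3 only just so (log2 difference 0.92, standard error 0.248, edgeR adjusted p 0.01681). BAN had 319, 178, 192 and 317 CPM and TT19 57.0, 42.4, 51.4 and 60.5 CPM, and in both replicate 2 fell below the highest WT library. Their log2 differences were 0.67 (standard error 0.194) and 0.74 (standard error 0.228), with edgeR adjusted p of 0.02338 and 0.03344. TT10 was lower, with 457, 281, 292 and 374 CPM against 626, 544, 516 and 389 CPM in WT, at a log2 difference of -0.56 (standard error 0.181, edgeR adjusted p 0.0394) and with overlapping groups.

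TT3 was the gene of these 5 whose call held with every one of the 8 libraries left out. TT18 missed the threshold without WT replicate 3, crwn1/2 replicate 1 or crwn1/2 replicate 4 (log2 difference 0.74 to 0.78, edgeR adjusted p 0.05527 to 0.06496). BAN missed it without WT replicate 2 or 4 or crwn1/2 replicate 1 or 4 (0.54 to 0.64, adjusted p 0.05514 to 0.09375). TT19 missed it without any of these libraries but WT replicate 1 and crwn1/2 replicate 2 (0.62 to 0.75, adjusted p 0.06443 to 0.1042), and TT10 without any but WT replicate 4 and crwn1/2 replicate 1 (-0.60 to -0.47, adjusted p 0.05669 to 0.1223). With the covariate for reads outside features TT18 (0.84), BAN (0.56) and TT19 (0.72) also missed it (adjusted p 0.07354 to 0.1081), and TT10 did without the filter on low counts (-0.35, adjusted p 0.1747) and in a fit of the 2 groups alone (-0.60, adjusted p 0.05493). TT6 passed as higher without WT replicate 1 (0.81, adjusted p 0.03323) and without that filter (0.81, adjusted p 0.004495), and without WT replicate 4 TT7 passed as lower (-0.69, adjusted p 0.02984).

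**Figure D3:**
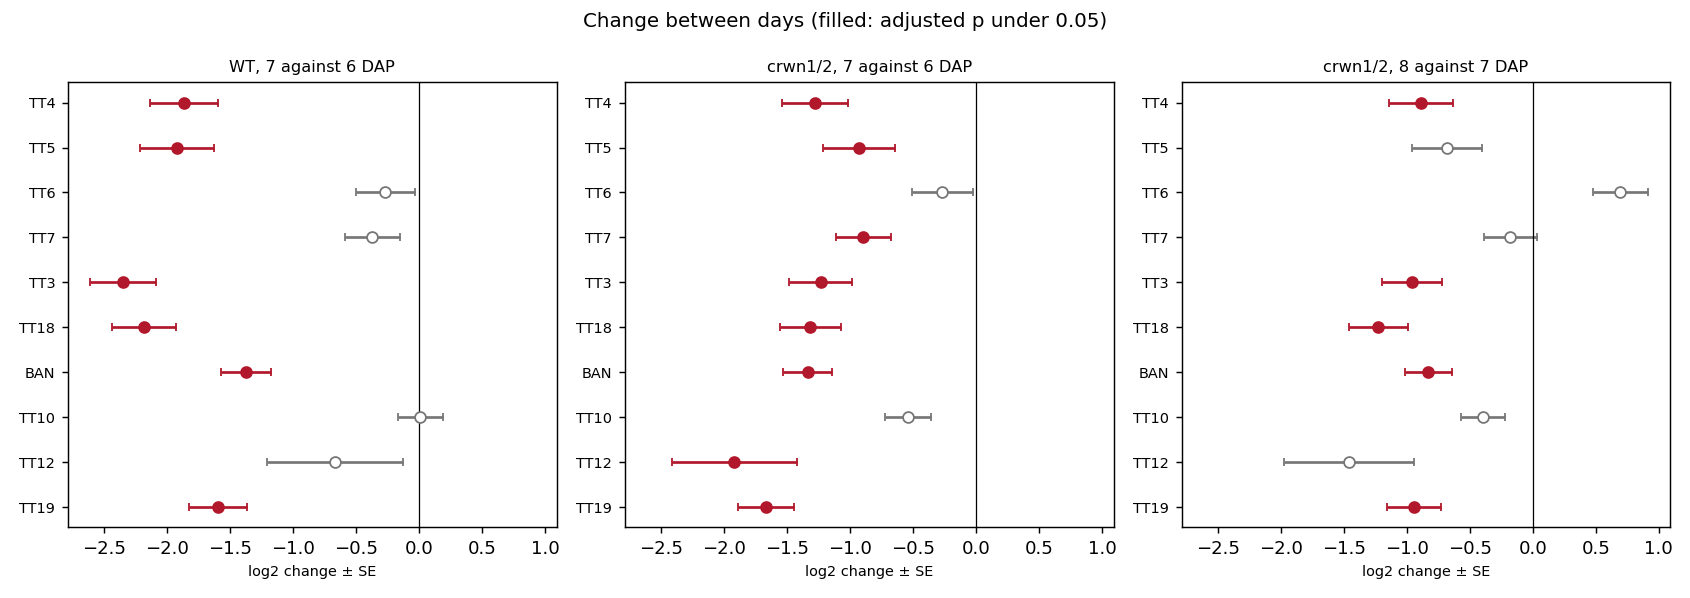
Log2 change with SE (x axis) of each gene (y axis) between successive days within a genotype; filled points have an edgeR adjusted p under 0.05. Called changes all lie to the left of 0, and TT6 and TT10 are called in none of the 3 panels.

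The next question was how the genes changed from day to day within a genotype. In WT 6 of the 10 genes fell from 6 to 7 DAP and 0 rose, where 10.5% of all features fell and 9.58% rose (20% in either direction). TT3 fell by 2.35 on the log2 scale (standard error 0.262, edgeR adjusted p 1.756e-06), TT18 by 2.18, TT5 by 1.92, TT4 by 1.87, TT19 by 1.60 and BAN by 1.37. In all 6 the highest library of 7 DAP was below the lowest of 6 DAP, as in 11.4% of all features, while 0 genes had the reverse, as 12.6% had. All 6 calls held under every other fit and without any of the 8 libraries. TT5 went from 67.8, 57.2, 103 and 79.6 CPM to 27.8, 24.3, 19.6 and 9.57 CPM. The remaining genes overlapped between the days: TT6 had 57.1 to 132 CPM at 7 DAP, TT7 69.8 to 173 CPM and TT10 389 to 626 CPM (log2 changes -0.27, -0.37 and 0.01, edgeR adjusted p 0.4414, 0.2326 and 0.9798). TT12 had a log2 change of -0.67 (standard error 0.54, edgeR adjusted p 0.3981). The median log2 change was -1.49 over the 10 genes and 0.02 over all features.

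In crwn1/2 8 of the 10 genes fell from 6 to 7 DAP and 0 rose, where 4.64% of all features fell and 6.57% rose (11.2% in either direction). In 6 genes, all of those called but TT5 and TT12, the days did not overlap, as in 6.95% of all features for a fall and 8.7% for a rise. TT12 fell by 1.92 on the log2 scale (standard error 0.497, edgeR adjusted p 0.01283), TT19 by 1.67, BAN by 1.34, TT18 by 1.31, TT4 by 1.27, TT3 by 1.23, TT5 by 0.93 and TT7 by 0.89. TT6 and TT10 had log2 changes of -0.27 and -0.54 (edgeR adjusted p 0.54 and 0.05945). BAN went from at least 1046 CPM in each library of 6 DAP to at most 602 CPM at 7 DAP, so these groups were far apart. The fall of TT12 was lost without crwn1/2 6 DAP replicate 2 (-1.65, adjusted p 0.09071). The fall of TT5 was lost without 6 DAP replicate 1 or 2 or without 7 DAP replicate 2, 3, 4 or 5 (-0.93 to -0.76, adjusted p 0.06153 to 0.1922). TT10 passed as a fall without 6 DAP replicate 2 (-0.70, adjusted p 0.03341) or 7 DAP replicate 4 (-0.61, adjusted p 0.04789), without the filter on low counts (-0.54, adjusted p 0.03924) and with the DESeq2 Wald test (-0.55, adjusted p 0.03277). TT7 was called in crwn1/2 and not in WT, but the difference between the genotypes in this change, which is the interaction above, was -0.52 (standard error 0.312, edgeR adjusted p 0.3895) for TT7 and -1.25 (standard error 0.743, adjusted p 0.3868) for TT12.

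From 7 to 8 DAP in crwn1/2 5 genes fell and 0 rose, where 1.73% of all features fell and 2.22% rose (3.95% in either direction). They were TT18 (log2 change -1.22, standard error 0.235, edgeR adjusted p 0.004464), TT3 (-0.96), TT19 (-0.94), TT4 (-0.89) and BAN (-0.83). TT18 and TT19 did not overlap between these days, nor did TT5 (-0.68, adjusted p 0.1829), and TT4, TT3 and BAN did; 4.2% of all features had such a fall and 4.88% such a rise. The count of 5 dropped to 2 without 7 DAP replicate 1, where TT3 (-0.80), TT19 (-0.69) and TT4 (-0.65) were lost. It also dropped to 2 without 8 DAP replicate 3, where BAN (-0.72), TT3 (-0.88) and TT4 (-0.75) were lost. Over all features the calls dropped as well, from 976 to 458 and to 473. TT3 was also lost without 8 DAP replicate 2 (-0.75, adjusted p 0.05327), and TT4 without 7 DAP replicate 2 or 4 or any 1 library of 8 DAP (-0.99 to -0.75, adjusted p 0.06382 to 0.1741) and with DESeq2 size factors (-0.86, adjusted p 0.05383). TT12 passed as a fall without 8 DAP replicate 2 (-2.03, adjusted p 0.03556). With the covariate for reads outside features 0 of the 10 passed, with TT18 at -1.14 (edgeR adjusted p 0.07539). Over all features 161 passed with that covariate and 976 without it. The share was 4.05% to 4.68% at 7 DAP and 4.76% to 5.30% at 8 DAP, so covariate and day cannot be fully told apart. TT6 went the other way, from 70.2, 98.6, 87.8, 86.96 and 83.8 CPM at 7 DAP to 191, 119, 112 and 131 CPM at 8 DAP. Every library of 8 DAP was above those of 7 DAP, at a log2 change of 0.70 (standard error 0.221) that missed the threshold (edgeR adjusted p 0.07807) and passed with the DESeq2 Wald test (0.72, adjusted p 0.0359), in a fit of the 2 groups alone (0.72, adjusted p 0.01753) and without the filter on low counts (0.68, adjusted p 0.03107).

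Ordered by mean level, crwn1/2 at 6 DAP stood first for TT4, TT7, TT3, TT18, BAN, TT10, TT12 and TT19. For TT3, TT18, BAN and TT19 it was followed by crwn1/2 at 7 DAP and WT at 6 DAP, which overlapped in all 4 genes, then by crwn1/2 at 8 DAP and last by WT at 7 DAP. BAN had a mean of 446 ± 109 CPM in crwn1/2 at 7 DAP (SD, n = 5) and 408 ± 46.6 CPM in WT at 6 DAP (SD, n = 4). TT3 had 174 ± 48.4 CPM and 161 ± 25.2 CPM in the same groups, TT18 155 ± 52.1 and 159 ± 27.9 CPM, and TT19 102 ± 37.8 and 96.0 ± 18.4 CPM. In each of these 4 genes the crwn1/2 mean of 7 DAP was thus within 1 SD of the WT mean of the day before. TT4 and TT5 did not share this order, since TT4 had 168 ± 61.0 CPM in crwn1/2 at 7 DAP and 358 ± 103 CPM in WT at 6 DAP, and TT5 was highest in WT at 6 DAP at 77.0 ± 19.8 CPM.

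Across the 20 libraries TT3, TT18, BAN and TT19 had Spearman correlations of 0.958 to 0.982 in their 6 pairs. With the group means removed the Pearson correlation of the same pairs was 0.443 to 0.803. Over all 45 pairs of the 10 genes Spearman's correlation ran from -0.117, for TT6 and TT12, to 0.982, with a median of 0.589. These libraries share their groups and each library's scaling, so the values describe the set and carry no test.

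The general phenylpropanoid genes supply the pathway. Of 8 such genes tested, 1 was higher and 1 lower at 6 DAP, 0 higher and 3 lower at 7 DAP, with median log2 changes of -0.17 and -0.64. Over all features 6.38% were called higher and 6.26% lower at 6 DAP, and 10.9% and 13.5% at 7 DAP. The medians over all features were -0.01 and 0.02. C4H, cinnamate 4-hydroxylase, was higher at 6 DAP (0.57, edgeR adjusted p 0.03195), and 4CL1, a 4-coumarate CoA ligase, was lower at 6 and 7 DAP (-1.23 and -1.13, adjusted p 0.04383 and 0.01535). At 6 DAP the call of C4H was lost without WT replicate 2, 3 or 4 or crwn1/2 replicate 1 or 2 (0.52 to 0.70 over all alternatives), and that of 4CL1 without any 1 WT library or crwn1/2 replicate 1 or 3 (-1.55 to -0.85). PAL4, a phenylalanine ammonia lyase, was lower in crwn1/2 at 7 DAP (-1.54, adjusted p 0.01015) and rose from 6 to 7 DAP in WT and in crwn1/2 (2.72 and 2.86, adjusted p 0.0002934 and 0.001462).

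The flavonol branch leaves the pathway at the dihydroflavonols that TT3 also uses, and 8 of its 9 listed genes were tested. The list includes CHIL, which is not limited to this branch. At 6 DAP 1, CHIL, was higher and 3 were lower in crwn1/2. At 7 DAP 1, again CHIL, was higher and 4 were lower, with medians of -0.77 and -0.57 at the 2 days. The shares over all features were 6.38% higher and 6.26% lower at 6 DAP, and 10.9% and 13.5% at 7 DAP. FLS1 encodes the main flavonol synthase. Its level at 6 DAP was 46.1, 37.1, 77.8 and 49.8 CPM in WT and 13.01, 14.5 and 11.3 CPM in crwn1/2. The genotypes were thus apart in the direction opposite to TT3, at a log2 difference of -2.03 (standard error 0.301, edgeR adjusted p 6.611e-05). At 7 DAP FLS1 overlapped between the genotypes (-0.69, adjusted p 0.04474), and that call was lost in 10 of 15 alternatives, among them leaving out WT replicate 1, 2 or 3 or crwn1/2 replicate 1, 2, 3 or 5 (-0.96 to -0.46 over all alternatives).

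UGT78D1, a flavonol rhamnosyltransferase, was lower at 6 DAP (-0.90, edgeR adjusted p 0.001596) and at 7 DAP (-0.65, adjusted p 0.004541), the second of which was lost without the filter on low counts and with the covariate for reads outside features (-0.74 to -0.42 over all alternatives, adjusted p up to 0.09569). OMT1, an O-methyltransferase, was lower at 7 DAP (-0.74, adjusted p 0.001935) and rose from 6 to 7 DAP in both genotypes (1.18 in WT and 0.84 in crwn1/2). CHIL encodes a chalcone isomerase-like protein without catalytic activity that promotes flavonoid synthesis. It was higher in crwn1/2 at 6 DAP (0.79, adjusted p 0.04074) and at 7 DAP (0.90, adjusted p 0.007568), the first of which was lost without any 1 WT library or crwn1/2 replicate 2 (0.62 to 0.93 over all alternatives). CHIL fell from 6 to 7 DAP in WT and in crwn1/2 (-1.55 and -1.44, adjusted p 8.515e-05 and 0.0002642), as TT4 fell in both.

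Of the anthocyanin branch 5 of 6 genes were tested, and 0 were higher and 1 lower at 6 DAP and 0 called at 7 DAP. Beside these, 12.6% and 24.4% of all features were called in either direction at 6 and 7 DAP. Of the 3 other proanthocyanidin genes, AHA10, a proton pump of the endothelium, had 7.58, 7.91, 14.7 and 6.22 CPM in WT at 6 DAP and 25.7, 27.1 and 15.8 CPM in crwn1/2. The groups were apart, and the log2 difference of 1.33 (standard error 0.34, edgeR adjusted p 0.01108) was lost without crwn1/2 replicate 2 (1.22, adjusted p 0.05707). UGT80B1, a sterol glucosyltransferase needed for normal seed coat tannin, was lower in crwn1/2 at 7 DAP (-0.87, adjusted p 0.003187). With the covariate for reads outside features the calls at 7 DAP of PAL4, 4CL1, FLS1, CHIL, UGT78D1 and UGT80B1 were lost.

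**Figure D4:**
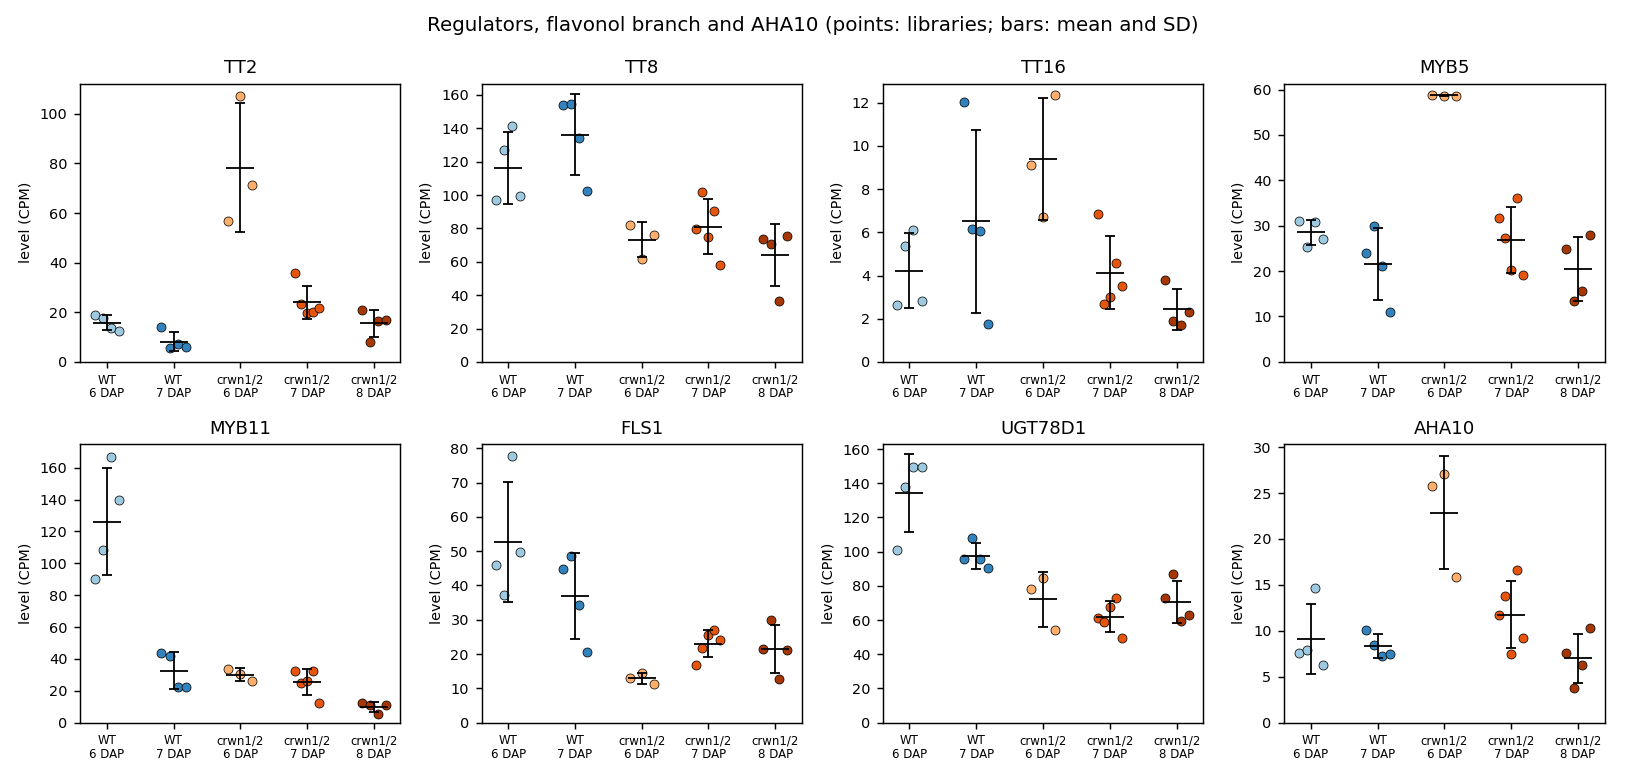
Level in CPM (y axis, from 0, a scale of its own per gene) of 5 regulators, 2 flavonol genes and AHA10 in the 5 groups (x axis), with points for libraries and bars for the mean and SD. TT2, MYB5 and AHA10 have their highest mean in crwn1/2 at 6 DAP, where MYB11 and FLS1 lie below WT of that day and TT8 below WT of both days.

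Of the 16 regulators of the pathway 15 were tested. At 6 DAP 3 were higher in crwn1/2 and 2 lower, and at 7 DAP 2 were higher and 3 lower, with medians of 0.08 and -0.34, beside 12.6% and 24.4% of all features called in either direction at these days. TT2, the MYB factor of the complex, had 19.01, 17.5, 13.7 and 12.6 CPM in WT at 6 DAP and 56.8, 107 and 71.2 CPM in crwn1/2. Every crwn1/2 library was far above WT, and the log2 difference was 2.32 (standard error 0.312, edgeR adjusted p 2e-05). At 7 DAP TT2 was again higher (1.55, standard error 0.294, edgeR adjusted p 0.0008647), and it fell from 6 to 7 DAP in crwn1/2 (-1.7002, edgeR adjusted p 0.000301). It also fell in WT over these days (-1.31 to -0.78 over all alternatives), a call lost in 6 of 14. In crwn1/2 at 8 DAP TT2 was higher than in WT at 7 DAP (0.76 to 1.30 over all alternatives), a call lost in 7 of 14. TT8, its bHLH partner, lay below WT in every crwn1/2 library at 6 DAP without passing (-0.66, adjusted p 0.05173) and was lower at 7 DAP, with 154, 154, 134 and 102 CPM in WT and 79.7, 102, 75.1, 90.3 and 58.2 CPM in crwn1/2 (-0.75, adjusted p 0.007568). TT2 and TT8 thus differed between the genotypes in opposite directions at 7 DAP. TTG1, the WD40 protein of the complex, was called higher at 7 DAP, which was lost in 5 of 15 alternatives (-0.01 to 0.83).

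MYB5, a MYB factor related in function to TT2 and named here after its values were seen, had 31.05, 25.3, 30.7 and 27.2 CPM in WT at 6 DAP and 58.9, 58.6 and 58.6 CPM in crwn1/2 (log2 difference 1.04, standard error 0.272, edgeR adjusted p 0.01304). TT1, a zinc finger protein needed for the endothelium, was higher at 6 DAP (1.71, adjusted p 0.01882), a call lost without WT replicate 1 (1.55, adjusted p 0.05974) or crwn1/2 replicate 3 (1.52, adjusted p 0.07363). TT16, a MADS-box factor of the endothelium, had 2.65 to 6.10 CPM in WT and 6.72 to 12.3 CPM in crwn1/2 at 6 DAP, apart but not called (1.15, adjusted p 0.131).

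Of the 3 MYB factors known to activate the flavonol branch, MYB11 and MYB111 were lower in crwn1/2 at 6 DAP. MYB11 had 90.0, 109, 167 and 140 CPM in WT and 33.95, 30.4 and 25.8 CPM in crwn1/2 (log2 difference -2.07, standard error 0.319, edgeR adjusted p 0.0001035). At 7 DAP MYB11 overlapped between the genotypes, and the interaction was 1.73 (standard error 0.41, edgeR adjusted p 0.02116), which was lost without WT 6 DAP replicate 3 and with the covariate for reads outside features (1.44 to 1.95 over all alternatives). In WT MYB11 fell from 6 to 7 DAP (-2.113 to -1.775 over all alternatives, 0 of 14 lost). In crwn1/2 at 8 DAP MYB11 was lower than in WT at 7 DAP (-1.879 to -1.508, 0 of 14 lost). MYB111 had 84 counts in the WT libraries of 6 DAP and 3 counts in those of crwn1/2, a ratio of counts per total of 0.0397 with an exact 95% interval of 0.00802 to 0.12 that covers counting error only (edgeR adjusted p 0.0001799). MYB111 rose in WT from 6 to 7 DAP by 2.32 (edgeR adjusted p 0.0009971). In crwn1/2 MYB111 rose over these days as well, from 3 counts (4.83 to 6.10 over all alternatives, 0 of 14 lost). At 7 DAP it was again lower in crwn1/2 (-1.53, edgeR adjusted p 0.01002), a call lost with that covariate. MYB12, the third flavonol factor of this family, was not called in any of these comparisons.

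**Figure D5:**
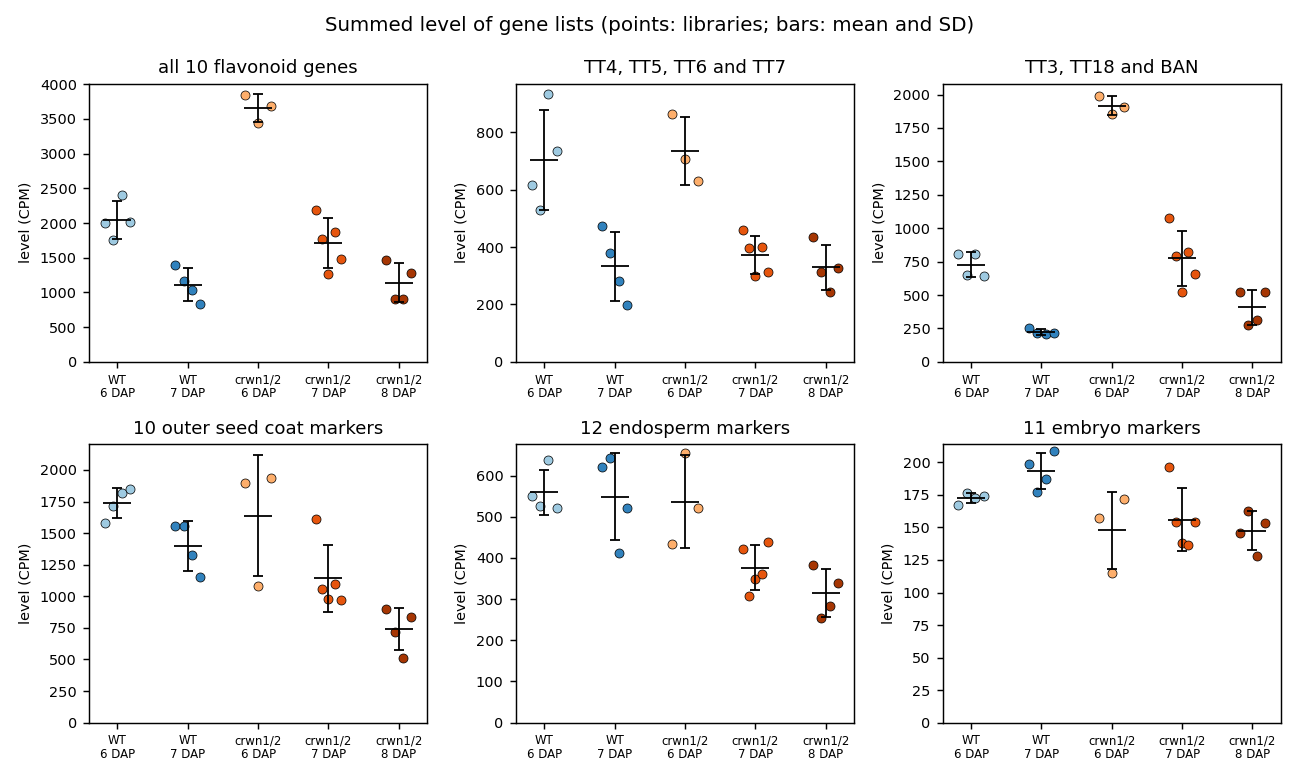
Summed level in CPM (y axis, from 0) of the 10 genes, of their early and late steps and of 3 marker lists in the 5 groups (x axis), with points for libraries and bars for the mean and SD. The 10 genes and the late steps are highest in crwn1/2 at 6 DAP, while the sums of the 3 marker lists overlap between the genotypes there.

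Markers of other seed tissues were read beside these changes. At 6 DAP the 10 flavonoid genes summed to 1752 to 2409 CPM in WT and 3440.3 to 3840.3 CPM in crwn1/2. The outer seed coat markers summed to 1577 to 1847 CPM in WT and 1083 to 1938 CPM in crwn1/2. Of these 10 markers 1 was higher and 5 were lower, beside 6.38% of all features called higher and 6.26% called lower. MUM2, a beta-galactosidase of mucilage, was lower (-1.32, edgeR adjusted p 0.0001659), as was CESA5, a cellulose synthase (-1.54, adjusted p 9.409e-06). PRX36, a peroxidase of the mucilage cells, was the one that was higher (2.44, adjusted p 0.0003902). PRX36 had 89.7, 124, 46.4 and 80.6 CPM in WT and 519.9, 216 and 655 CPM in crwn1/2, and these values enter the summed level.

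The endosperm markers summed to 522 to 639 CPM in WT and 433 to 656 CPM in crwn1/2 at 6 DAP, and the embryo markers to 168 to 176 and 115 to 172 CPM. Of 11 endosperm markers tested 5 were higher and 1 lower, among them FWA (1.97, edgeR adjusted p 0.001342) and ALE1 (-2.002, adjusted p 6.643e-07). Of 10 embryo markers tested 1 was higher and 1, WOX8, lower (-1.98, edgeR adjusted p 1.217e-05). Over all features 6.38% were called higher and 6.26% lower at 6 DAP. At 7 DAP the outer seed coat list had 1 higher and 4 lower, the endosperm list 3 higher and 2 lower and the embryo list 0 higher and 1 lower, of 10, 11 and 10 markers tested, beside 10.9% of all features called higher and 13.5% called lower. The outer seed coat sum at 7 DAP was 1153 to 1559 CPM in WT and 969.6 to 1610.1 CPM in crwn1/2. In crwn1/2 at 8 DAP it was 513 to 899 CPM, below every WT library of 7 DAP. The endosperm sum was 411 to 642 CPM in WT at 7 DAP and 253 to 383 CPM in crwn1/2 at 8 DAP. The embryo sum was 177 to 209 and 128 to 163 CPM in the same groups. Both sums were thus also below every WT library of 7 DAP. In WT, from 6 to 7 DAP, 0 outer seed coat markers rose and 2 fell, PRX36 and PMEI6. The call of PMEI6 was lost in 8 of 14 alternatives. Of the endosperm markers 3 rose and 4 fell, while 0 of the embryo markers were called in either direction. Over all features 9.58% rose and 10.5% fell between these days. The part of a change in tissue make-up in the changes of the 10 genes was not tested.

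The features most like the 10 genes were taken as the 5 with the highest Spearman correlation over the 20 libraries with the mean standardised log2 CPM of the 10. They were MIOX1, a myo-inositol oxygenase (AT1G14520, 0.976), CHIL (AT5G05270, 0.965), LSH5 (AT5G58500, 0.961), AT3G05280 (0.949) and AT5G20190 (0.949). Among the 10 genes the same measure, which includes each gene itself, was 0.968 for TT4, 0.908 for TT18 and 0.185 for TT6. MIOX1 had mean levels of 662 CPM in WT at 6 DAP, 182 CPM in WT at 7 DAP and 1065, 360.0 and 237.5 CPM in crwn1/2 at 6, 7 and 8 DAP. These features were chosen for their likeness over the same libraries, so their levels are a description.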

How the data were processed

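The members and gene lists were chosen with earlier results of these data known. The authors deposited 1 file per library of whole-number read counts per annotated feature. Per the submitters' processing notes, Trim Galore 0.6.7, STAR 2.7.1a, SAMtools, HTSeq and the TAIR10 build were used in the series, and the strand setting was not given in the sources used here, so reads of overlapping antisense genes cannot be told apart. Summary lines naming no feature were left out (outside features, 4.05% to 5.92% of counted reads). The deposited H3K27me3 peak lists, with the authors' read counts per peak, were not analysed at the genes. The gene table given is named TAIR10.1, and the match of its coordinates to the TAIR10 build was not checked.

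From the deposited counts, edgeR 4.0.16 in R 4.3.3 fitted 1 model with a term per group to all 20 libraries (TMM scaling, filterByExpr with a minimum count of 10 and a total of 15, quasi-likelihood F-test, two-sided, Benjamini-Hochberg over all 24696 features tested, threshold 0.05). The fit was tested on simulated data. CPM are counts scaled to the TMM-scaled library total. Levels were not compared between genes, since no gene lengths were used. All 10 members are named. Of every other list up to 4 genes per comparison with the largest change among those past the threshold were open to naming. MYB5, TT16, MYB12 and, at 7 DAP, UGT78D1 and TTG1 were named after their values were seen. The most alike features were ranked by Spearman correlation. Replicates of a group differed by more than sampling noise (chi-square per feature 8.64 to 34.2). Alternatives were DESeq2 size factors, no filter, the DESeq2 1.42.0 Wald test, the replicate number as a block, a covariate for reads outside features (their share), a fit of the compared groups alone and leaving out each library. The alternatives for genes of the other lists were added after seeing the data. Intervals cover counting error only. Sequences of the genes are not shown here.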

Additional observations from a re-analysis of the deposited data

Results flagged for a closer look

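Among 40 gene and group combinations of at least 4 libraries, 1 library stood apart from its group: TT12 in crwn1/2 at 8 DAP had 1.79 CPM in replicate 2 and 0.486 to 0.671 CPM in the other libraries, a gap of 0.858 of the group's range. Chance alone flags about 1 in 20 such groups, and TT12 had 7 to 15 counts in these libraries.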

How the results depend on the processing

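Counts of genes called that moved by over 1.5 times were those between crwn1/2 of 8 DAP and WT of 7 DAP (5, with 2 under the covariate for reads outside features), for crwn1/2 8 against 7 DAP (5, with 0 under that covariate) and for the interaction (0, with 2 without the filter on low counts, 1 with the DESeq2 Wald test and 1 with only the groups compared). Over all features, in that order, 3442 calls became 2471, 976 became 161, and 862 became 1423, 1523 and 743. With 1 library left out the counts ran from 5 to 5 at 6 DAP, 4 to 5 at 7 DAP, 1 to 5 for 8 against 7 DAP between genotypes, 6 to 6 in WT, 7 to 8 and 2 to 5 in crwn1/2, and 0 to 0 for the interaction. Over all features the calls with every library were 3122, 6034, 3442, 4950, 2769, 976 and 862 in that order. With 1 library left out they ran from 1787 to 3212, 3953 to 5744 and 1932 to 3650 between genotypes. Within WT they ran from 3558 to 4688, within crwn1/2 from 1395 to 3392 and 458 to 1215, and for the interaction from 478 to 990. The cause was not tested. The replicate numbers did not pair the libraries (same-number correlations -0.197 to 0.14), and with the replicate block the counts were 6, 5, 4, 6, 6, 5 and 0 in the same order. Under the block TT5 was gained at 6 DAP (-1.03, edgeR adjusted p 0.04053), TT10 was lost for 8 against 7 DAP between genotypes (-0.58, adjusted p 0.0535), and TT5 (-0.81, adjusted p 0.1161) and TT7 (-0.75, adjusted p 0.05161) were lost from 6 to 7 DAP in crwn1/2. Without the filter the median of all features shifted by 0.23 at 7 DAP, 0.21 between crwn1/2 of 8 DAP and WT, -0.15 in WT between days and 0.15 in the interaction.

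Uncalled genes changed sign. Without the filter these were TT6 (0.14) and TT10 (0.0606) at 7 DAP, TT4 (0.10) at 8 DAP against WT, TT10 (-0.14) in WT between days and TT19 (0.0864) in the interaction. With the covariate they were TT6 (0.0463) and TT5 (-0.14) at 7 DAP and BAN (-0.20) in the interaction, and, of the other lists, TTG1 at 7 DAP (-0.0123), which had been called. In the interaction TT6 was -0.0478 with DESeq2 size factors, -0.0482 with the Wald test and -0.0078 in the groups alone, and BAN was -0.0048 and -0.0047 with DESeq2. With 1 library left out, values on both sides of 0 were TT6 at 6 DAP (-0.27 to 0.10), TT5 (-0.11 to 0.30) and TT6 (-0.28 to 0.11) at 7 DAP, TT4 at 8 DAP (-0.27 to 0.093), TT10 in WT (-0.0815 to 0.14), and TT6 (-0.18 to 0.22), BAN (-0.10 to 0.14) and TT19 (-0.32 to 0.16) in the interaction. TT12, with 6 to 119 counts, is the gene whose depth limits it most.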
